A study of Mus musculus with 24 samples.

Results

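The genes described here are 10 members of the transforming growth factor beta (TGF-beta) and bone morphogenetic protein (BMP) pathway, out of 35413 genes with summed reads in mouse kidney. They were taken as a list of names, drawn up with earlier results of these data known, and are the ligands Tgfb1, Tgfb2, Tgfb3, Inhba and Bmp7, the receptors Tgfbr1 and Tgfbr2, the latent TGF-beta binding protein family members Ltbp1 and Ltbp2, and the intracellular inhibitor Smad7. All 10 passed the filter on low counts in each of 2 separate experiments, in which 16959 and 16404 genes were tested. In the knockout experiment, 6 mice labelled ENPP1 knockout (ENPP1 fl/fl with the tamoxifen-inducible CAG-ERCre transgene, Cre-positive) and 6 Cre-negative wild-type (WT) mice ate adenine for 14 days, and 4 mice ate chow. In the antibody experiment, 4 mice received a monoclonal antibody to human ENPP1 (hENPP1) and 4 received control IgG. Both were injected intraperitoneally at 50 mg/kg, 2 times a week, and all 8 mice ate adenine for 14 days. ENPP1 is an ectoenzyme that splits extracellular ATP, and adenine in the diet injures the kidney because its oxidised product crystallises in tubules. CAG is a promoter active in most cell types, not in a single kidney cell type, and carrying Cre and being labelled knockout cannot be told apart. The sources used here do not give the genotype of the chow mice, the sex, age or strain of any mice, the deleted exons, or whether antibody-treated mice had the human gene. The numbers of mice are those of the design and equal the numbers of libraries, but no label ties a library to an animal, so p-values measure the spread between these libraries.

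TGF-beta ligands are secreted in a latent complex with their propeptide and a latent TGF-beta binding protein, which ties them to the extracellular matrix. Released ligand binds TGFBR2, which recruits and phosphorylates TGFBR1, and TGFBR1 phosphorylates SMAD2 and SMAD3. Activins, which include dimers of the Inhba product, use the same SMADs through their own receptors, whereas BMP7 acts through SMAD1 and SMAD5. In injured kidney the TGF-beta arm is known for matrix production by fibroblasts, and BMP7, made mainly by distal nephron segments, collecting duct and podocytes, is known for opposing it.

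Levels are CPM, the counts of a gene relative to the size of its library, scaled between libraries by the TMM method of edgeR. Libraries of the knockout experiment held 21049722 to 28209908 reads assigned to genes, with 16.8% to 26.6% in mitochondrial genes. Libraries of the antibody experiment held 43880608 to 50557594, with 20.5% to 30.0% in mitochondrial genes. Markers of proximal tubule, loop and distal tubule, collecting duct, podocyte, endothelium, fibroblast and macrophage were detected in every group, with none of a list at 0. Enpp1, read first as a check of the labels, averaged 22.7 ± 1.19 CPM in the libraries labelled knockout, 22.0 ± 1.52 CPM in WT libraries on adenine (SD, n = 6 each) and 54.2 ± 2.87 CPM in chow libraries (n = 4). The labelled knockout thus did not show less Enpp1 RNA than WT (log2 change 0.05, SE 0.0514, adjusted p = 0.466), and reads summed over a gene cannot show a deletion that leaves its transcript in place. Every direction given below for the knockout rests on the label. In the antibody experiment Enpp1 had 9.51, 2.62, 3.26 and 17.4 CPM with antibody, against 7.94, 8.86, 8.68 and 7.22 CPM with IgG.

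A gene was called at an adjusted p under 0.05 (quasi-likelihood F test of edgeR, Benjamini-Hochberg over all genes tested). Against chow, 8 of the 10 genes were higher and 2 lower in the labelled knockout on adenine, where 80.1% of all genes were called, 40.2% higher and 39.9% lower. In WT mice on adenine 6 were higher and 2 lower than in chow, where 84.9% of all genes were called, 44% higher and 40.9% lower. With upper-quartile scaling 8 were higher and 2 lower in WT. These comparisons use the same 4 chow libraries, so they are not independent of each other. Between labelled knockout and WT, both on adenine, 3 were higher and 4 lower, where 46.4% of all genes were called, 25.1% higher and 21.3% lower. With upper-quartile scaling 1 of the 10 was higher and 4 lower there. With antibody 2 were higher and 6 lower than with IgG, where 55.3% of all genes were called, 27.2% higher and 28% lower. The share of all genes called that were higher depended on the scaling: it was 54.1% between labelled knockout and WT, or 40.7% with upper-quartile scaling, and 49.3% with antibody, or 31.1% with that scaling. The median log2 change of the 10 was -0.96 with antibody, against -0.04 over all genes tested, and their median size of change was 0.96, against 0.36. Between labelled knockout and WT the median size was 0.28 for the 10 genes, against 0.20 for all. With adenine against chow it was 0.58 in the labelled knockout and 0.95 in WT, against 0.66 and 0.84 over all genes.

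**Figure D1:**
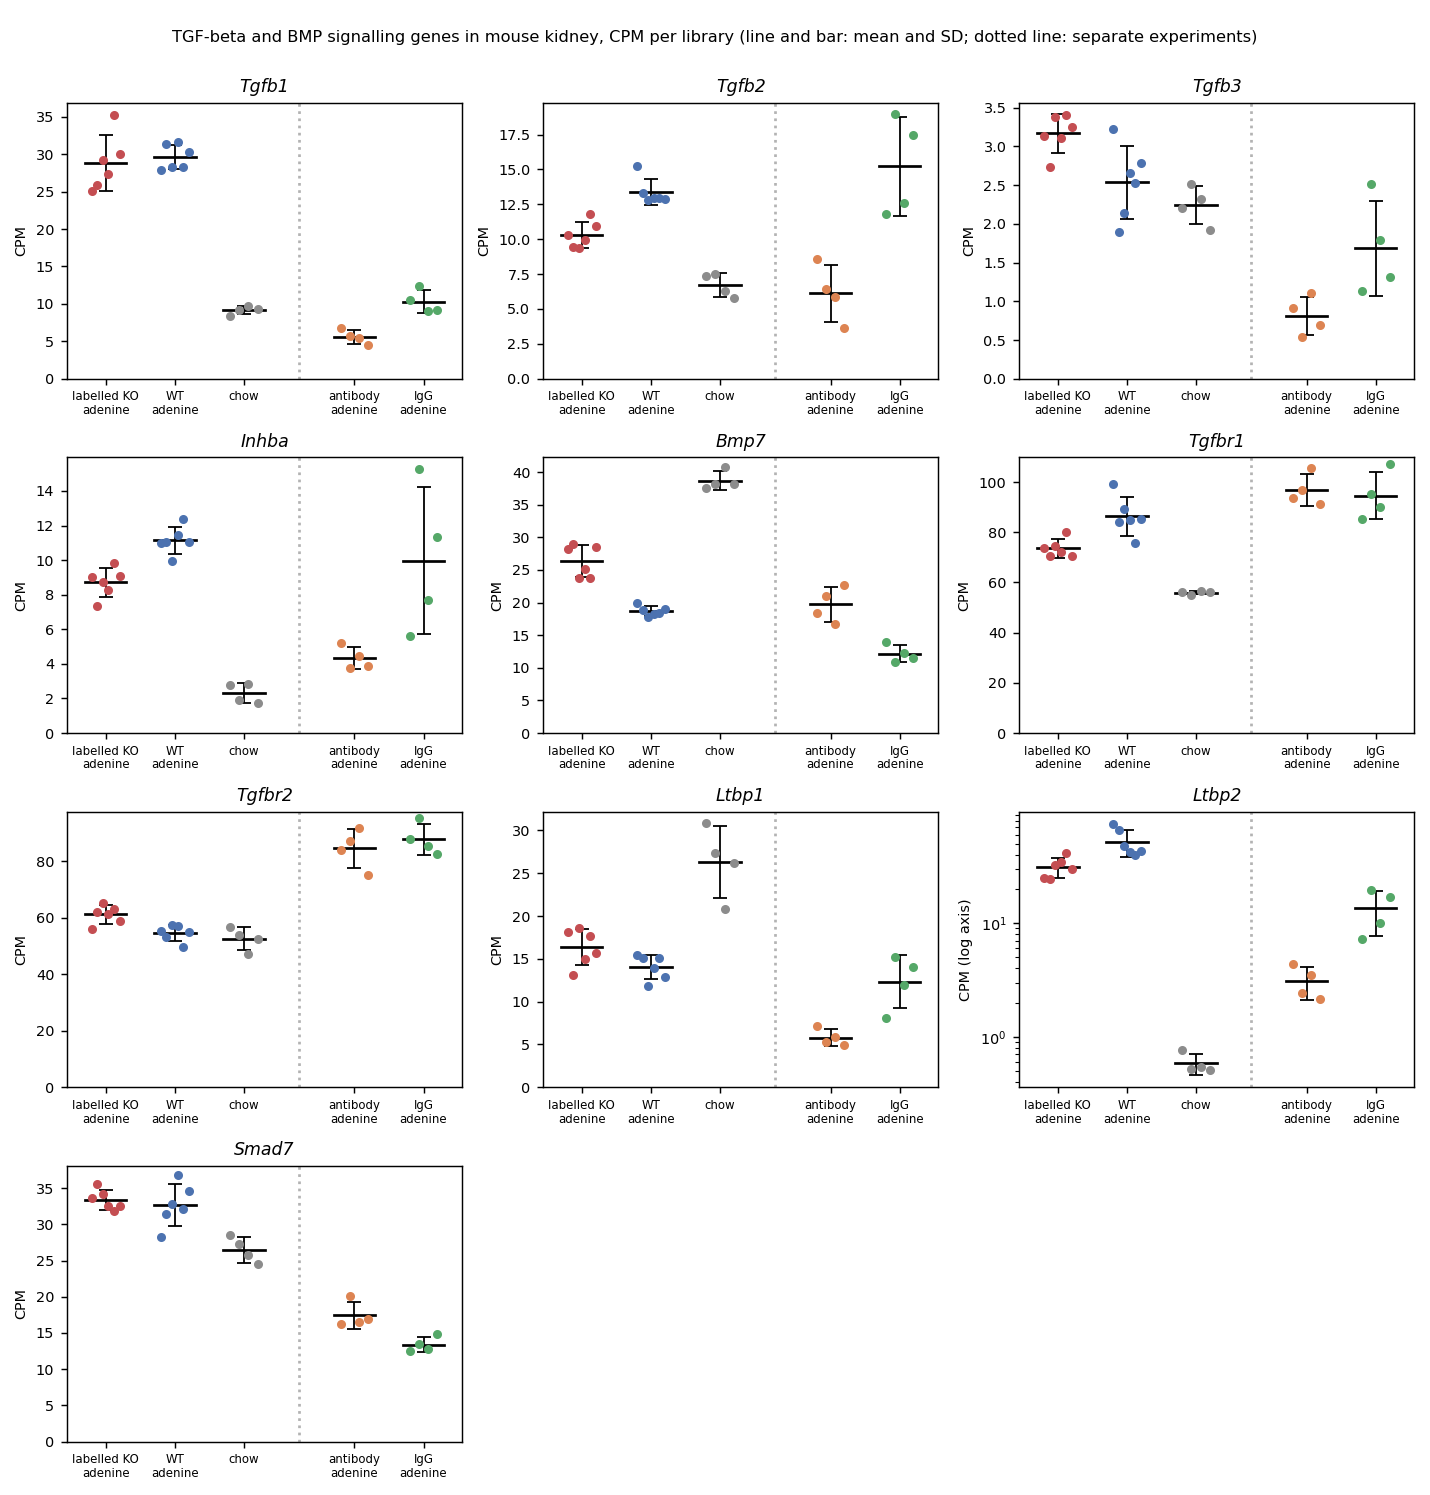
CPM of the 10 genes in each of 24 libraries, with the mean and SD of each group; points are libraries, the dotted line separates the experiments, and the Ltbp2 axis is logarithmic while the others start at 0. Tgfb1, Inhba and Ltbp2 lie well above the chow libraries in both adenine groups of the knockout experiment, Bmp7 and Ltbp1 lie below them, and 6 genes lie lower with antibody than with IgG without overlap.

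The ligand genes Tgfb1, Tgfb2 and Inhba and the matrix protein gene Ltbp2 were higher on adenine than on chow in both comparisons and lower with antibody than with IgG. Their promoters are shown because the 4 genes moved the same way in those 3 comparisons. Each is the 250 bases before the RefSeq start in assembly GRCm38.p6, 5′ to 3′ on the gene's strand, with capitals marking the TATA box letters TATAAA. The windows are chr7:25686752-25687001 on the plus strand for Tgfb1, chr1:186705990-186706239 on the minus strand for Tgfb2, chr13:16011601-16011850 on the plus strand for Inhba and chr12:84876492-84876741 on the minus strand for Ltbp2.
Tgfb1 promoter: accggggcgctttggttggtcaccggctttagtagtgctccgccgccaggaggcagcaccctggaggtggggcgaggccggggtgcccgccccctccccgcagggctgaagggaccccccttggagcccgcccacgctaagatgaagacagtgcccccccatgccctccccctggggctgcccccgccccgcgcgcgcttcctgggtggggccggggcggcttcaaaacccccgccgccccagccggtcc
Tgfb2 promoter: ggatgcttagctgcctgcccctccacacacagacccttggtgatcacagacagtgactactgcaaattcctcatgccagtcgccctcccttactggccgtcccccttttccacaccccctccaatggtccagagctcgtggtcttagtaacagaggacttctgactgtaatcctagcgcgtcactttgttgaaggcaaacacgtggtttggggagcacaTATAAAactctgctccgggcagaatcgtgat
Inhba promoter: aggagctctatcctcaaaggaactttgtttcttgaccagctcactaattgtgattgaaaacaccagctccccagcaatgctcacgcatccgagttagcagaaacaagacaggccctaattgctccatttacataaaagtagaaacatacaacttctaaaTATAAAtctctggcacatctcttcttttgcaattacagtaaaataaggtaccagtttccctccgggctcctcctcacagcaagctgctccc
Ltbp2 promoter: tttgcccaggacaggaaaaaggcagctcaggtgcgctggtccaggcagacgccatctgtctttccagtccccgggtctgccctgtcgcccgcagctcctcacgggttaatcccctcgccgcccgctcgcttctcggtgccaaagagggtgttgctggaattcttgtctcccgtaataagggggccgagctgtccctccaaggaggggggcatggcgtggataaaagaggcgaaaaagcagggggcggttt
A script searched both strands for TATAAA, for the AP-1 letters TGANTCA, for the Smad palindrome GTCTAGAC and for the BMP-Smad letters GGCGCC. The letters TATAAA began at position -31 from the start of Tgfb2 and at position -91 of Inhba, and whether they act as a TATA box was not tested. These letters were in 12.4% of 32851 promoter windows of the same length. None of the other 3 motifs was in any of these 4 windows, and over all windows they were in 6.75%, 0.167% and 9.59%. The Tgfb1 window had 75.2% G and C and the Inhba window 43.2%, on either side of the median of 52.4% over all windows. Of the 10 genes, 7 matched the RefSeq table. A GGCGCC stood in 1 of 2 windows of Tgfbr1, at position -233.

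Tgfb1 encodes the main TGF-beta ligand of injured kidney. Its lowest, median and highest CPM were 25.1, 28.3 and 35.3 in the labelled knockout and 27.9, 29.3 and 31.6 in WT on adenine, and the 4 chow libraries had 8.44, 9.17, 9.75 and 9.32. The adenine groups overlapped each other and neither overlapped chow. Against chow, Tgfb1 rose 3.14-fold in the labelled knockout (log2 change 1.65, SE 0.0887, adjusted p = 4.43e-12) and 3.23-fold in WT (1.69, SE 0.0887, adjusted p = 1.32e-12). Between labelled knockout and WT the log2 change was -0.04, with a 95% interval of -0.18 to 0.10 (adjusted p = 0.669). With antibody the libraries had 6.80, 5.71, 5.49 and 4.47 CPM, against 10.6, 12.3, 9.02 and 9.21 CPM with IgG. All 4 antibody libraries lay below all 4 IgG libraries, and the log2 change was -0.87 (SE 0.145, adjusted p = 0.000581). The knockout effect minus the antibody effect, tested over the 20 adenine libraries, was a log2 value of 0.76 (SE 0.149, adjusted p = 0.000532).

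Tgfb2, a second ligand of the same receptors, was lower in the labelled knockout than in WT and lower with antibody than with IgG. It had a lowest, median and highest CPM of 9.40, 10.1 and 11.8 in the labelled knockout, and of 12.8, 12.9 and 15.2 in WT on adenine. Chow libraries had 7.34, 7.49, 6.28 and 5.78 CPM. The 3 groups did not overlap, with the labelled knockout between chow and WT. Relative to WT, Tgfb2 fell by 0.37 in the labelled knockout on a log2 scale (adjusted p = 0.000547, SE 0.0753). Against chow it rose by 0.62 in the labelled knockout (adjusted p = 4.96e-06) and by 0.99 in WT (adjusted p = 5.44e-09). With antibody it had 8.57, 6.40, 5.84 and 3.64 CPM, against 11.8, 18.98, 12.6 and 17.5 CPM with IgG. The groups did not overlap, and the log2 change was -1.32 (SE 0.233, adjusted p = 0.000839). Subtracting the antibody effect from the knockout effect gave 0.87 (SE 0.225, adjusted p = 0.00475), a call lost with an offset for transcript length (0.72, adjusted p = 0.105).

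Tgfb3, the third TGF-beta ligand, was the lowest in CPM of the 3 and its knockout call was the least stable of the 10 genes. Its lowest, median and highest CPM were 2.73, 3.19 and 3.41 in the labelled knockout and 1.89, 2.59 and 3.23 in WT on adenine, with 2.21, 2.51, 2.32 and 1.93 in chow. The labelled knockout stood above chow without overlap (log2 change 0.50, SE 0.143, adjusted p = 0.00372), whereas WT overlapped chow (0.18, 95% interval -0.12 to 0.48, adjusted p = 0.255). Labelled knockout and WT overlapped, and the log2 change of 0.32 (SE 0.121) just passed, with an adjusted p of 0.0373. That call was lost without any 1 of 8 of the 12 libraries (adjusted p 0.052 to 0.089) and in 5 other settings. With antibody Tgfb3 had 0.914, 0.534, 1.10 and 0.697 CPM, against 1.13, 2.51, 1.79 and 1.32 CPM with IgG, with no overlap. The change with antibody was -1.06 (SE 0.301, adjusted p = 0.0119), and the knockout effect minus the antibody effect was 1.30 (SE 0.295, adjusted p = 0.00168).

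Inhba encodes the inhibin beta A chain, whose dimer is activin A. It had a lowest, median and highest CPM of 7.37, 8.89 and 9.86 in the labelled knockout and 9.97, 11.04 and 12.4 in WT on adenine, with 2.78, 1.94, 2.82 and 1.72 CPM in chow. No 2 of these groups overlapped, and the labelled knockout again stood between chow and WT. Inhba was 3.75-fold higher in the labelled knockout than in chow (log2 change 1.91, SE 0.128, adjusted p = 9.39e-11) and 4.79-fold higher in WT than in chow (2.26, SE 0.128, adjusted p = 3.9e-12). The labelled knockout was lower than WT by a log2 change of -0.35 (SE 0.0937, adjusted p = 0.00477). With antibody the libraries had 5.19, 3.78, 4.48 and 3.87 CPM, against 5.59, 15.3, 7.69 and 11.3 CPM with IgG. The groups did not overlap, but IgG replicate 1 lay close to the highest antibody library. The log2 change was -1.20 (SE 0.268, adjusted p = 0.00319), and without IgG replicate 2 it was -0.91. The knockout effect minus the antibody effect was 0.78 (SE 0.258, adjusted p = 0.0221), and without IgG replicate 2 the call was lost (0.50, adjusted p = 0.0721).

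IgG replicates 1 and 2 stood at the ends of several of these ranges. Replicate 2 had the highest IgG CPM of Tgfb1, Tgfb2, Tgfb3, Inhba, Ltbp1 and Ltbp2, and replicate 1 the lowest of all of these but Tgfb1. Macrophage markers summed to 465, 722, 397 and 368 CPM in IgG replicates 1 to 4, and fibroblast markers to 495, 730, 513 and 401 CPM. Replicate 2 was the highest and replicate 4 the lowest in both. For Tgfb2, Inhba, Ltbp1 and Ltbp2, replicate 4 was next to the highest, at 17.5, 11.3, 14.1 and 17.1 CPM, and for Tgfb1 and Tgfb3 it was not. Mitochondrial genes held 29.96%, 20.46%, 22.89% and 23.82% of reads in IgG replicates 1 to 4. The part of cell content or of mitochondrial reads in these ranges was not tested.

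Bmp7 ran opposite to Tgfb2 and Inhba: it was higher in the labelled knockout than in WT, higher with antibody than with IgG, and lower on adenine than on chow. Its lowest, median and highest CPM were 23.8, 26.6 and 29.1 in the labelled knockout and 17.8, 18.6 and 19.97 in WT on adenine, and chow libraries had 37.5, 38.2, 40.8 and 38.2. None of the 3 groups overlapped. The labelled knockout had 1.41-fold the CPM of WT (log2 change 0.50, SE 0.0551, adjusted p = 1.17e-06), 0.682-fold that of chow (-0.55, SE 0.0597, adjusted p = 7.91e-08), and WT had 0.484-fold that of chow (-1.05, SE 0.0604, adjusted p = 5.25e-12). With antibody Bmp7 had 18.5, 20.9, 16.7 and 22.7 CPM, against 13.9, 10.9, 12.2 and 11.6 CPM with IgG. The groups did not overlap, and Bmp7 was 1.62-fold higher with antibody (0.70, SE 0.11, adjusted p = 0.000422). Between the experiments the Bmp7 effects differed by -0.28 (knockout minus antibody), with a 95% interval of -0.53 to -0.03 and an adjusted p of 0.0738. That difference passed with DESeq2 (adjusted p = 0.0499), without antibody replicate 3 (0.0211) and without IgG replicate 1 (0.0307).

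Markers of collecting duct and of loop and distal tubule moved with Bmp7, while podocyte markers did so only in the knockout experiment. This was not particular to those segments, since proximal tubule markers moved the same way. All 10 proximal markers were higher in the labelled knockout than in WT, where 25.1% of all genes were. All 10 were higher with antibody than with IgG, where 27.2% of all genes were. Against chow 9 of them were lower in the labelled knockout and 10 in WT, where 39.9% and 40.9% of all genes were. Summed collecting duct markers ranged from 594 to 796 CPM in the labelled knockout, from 446 to 576 in WT on adenine and from 1034 to 1320 in chow, and from 267 to 320 with antibody, against 156 to 222 with IgG. Of the 10 markers, 7 were higher in the labelled knockout than in WT, where 25.1% of all genes were. With antibody 7 were higher and 1 lower than with IgG, where 27.2% and 28% of all genes were. Loop and distal tubule markers summed to 3641 to 5044 CPM in the labelled knockout, 2481 to 3084 in WT on adenine and 5795 to 7849 in chow, and to 2729 to 4024 with antibody, against 1829 to 2159 with IgG. Podocyte markers were higher in the labelled knockout than in WT (8 of 10 higher, 1 lower) but 2 were higher and 3 lower with antibody. They summed to 282 to 493 CPM in the labelled knockout, 182 to 247 in WT on adenine and 598 to 628 in chow. With antibody they summed to 83.4 to 106 CPM, overlapping 79.6 to 98.4 with IgG. The part of these segments in the Bmp7 result was not tested. In bulk tissue, fewer cells of a type and less RNA per cell cannot be told apart.

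**Figure D2:**
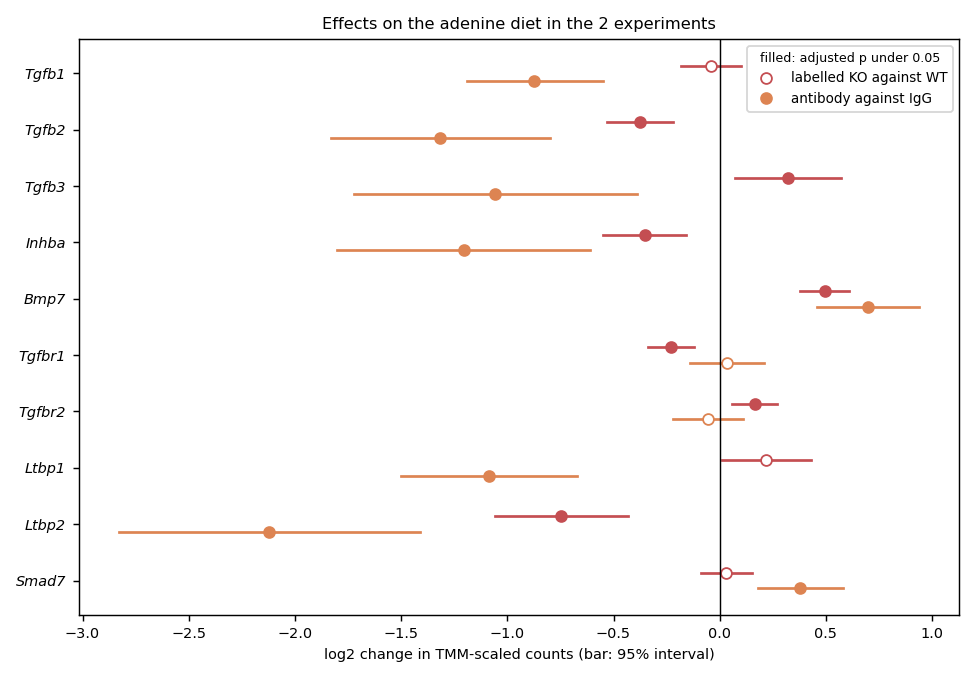
Log2 change of each gene between labelled knockout and WT and between antibody and IgG, all on adenine, with 95% intervals; filled points passed an adjusted p of 0.05. Tgfb2, Inhba and Ltbp2 fell and Bmp7 rose in both comparisons. Tgfb1, Tgfb3 and Ltbp1 fell with antibody, but Ltbp1 was not called from protein-coding transcripts only or with an offset for transcript length. In the labelled knockout Tgfb1 and Ltbp1 were not called in the main setting, and Tgfb3 was called higher than in WT.

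On adenine, 3 of the 10 genes had labelled-knockout and WT libraries that did not overlap (Tgfb2, Inhba and Bmp7), where 24.7% of all genes did not. With antibody 8 of the 10 did not overlap IgG, where 50.6% of all genes did not. Against chow, 9 of the 10 did not overlap in the labelled knockout and 7 in WT, where 69.7% and 75.2% of all genes did not. A difference between the effects, knockout minus antibody, was called for 8 of the 10, with 6 higher and 2 lower. Of all genes 37.9% were called, 16.3% higher and 21.6% lower, and of those called 43% were higher, or 69.1% with upper-quartile scaling. A positive difference means a less negative or more positive change in the labelled knockout than with antibody.

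Log2 changes of the receptors between groups lay between -0.23 and 0.62. Tgfbr1, the signalling kinase of the receptor pair, had a lowest, median and highest CPM of 70.4, 72.8 and 80.2 in the labelled knockout and 75.5, 85.1 and 99.2 in WT on adenine, with 56.2, 54.9, 56.6 and 56.2 CPM in chow. Both adenine groups lay above chow, and they overlapped each other. Tgfbr1 was higher than chow by a log2 change of 0.39 in the labelled knockout (SE 0.0604, adjusted p = 7.52e-06) and of 0.62 in WT (SE 0.0606, adjusted p = 1.26e-08), and the labelled knockout was lower than WT (-0.23, SE 0.0526, adjusted p = 0.00157). With antibody it had 93.5, 96.7, 106 and 91.4 CPM, against 85.5, 95.2, 90.1 and 107 CPM with IgG. The groups overlapped and the change was 0.04, with a 95% interval of -0.14 to 0.21 (adjusted p = 0.734); its sign turned with upper-quartile scaling (-0.12). For Tgfbr1 the knockout effect minus the antibody effect was -0.34 (SE 0.0993, adjusted p = 0.0103) and was not called with upper-quartile scaling (adjusted p = 0.171).

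Tgfbr2, the ligand-binding receptor, had a lowest, median and highest CPM of 56.0, 61.7 and 65.3 in the labelled knockout and 49.5, 55.1 and 57.3 in WT on adenine, with 56.8, 54.0, 47.1 and 52.3 CPM in chow. All 3 groups overlapped. The labelled knockout was above WT by a log2 change of 0.16 (SE 0.0506, adjusted p = 0.012), a call lost with upper-quartile scaling (adjusted p = 0.0988), and above chow by 0.22 (SE 0.0574, adjusted p = 0.0019). WT differed from chow by 0.05, with a 95% interval of -0.07 to 0.17 (adjusted p = 0.391), and upper-quartile scaling made that 0.28 (adjusted p = 0.000155). With antibody Tgfbr2 had 84.0, 87.2, 91.5 and 75.0 CPM, against 87.7, 95.1, 85.4 and 82.3 CPM with IgG. These overlapped, and the change was -0.05, with a 95% interval of -0.22 to 0.11 (adjusted p = 0.569), or -0.21 with upper-quartile scaling (adjusted p = 0.0347).

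Ltbp2, a latent TGF-beta binding protein family member that sits in elastic matrix and, unlike its relatives, does not bind latent TGF-beta, changed more than the other 9 genes in 4 comparisons of groups. It had a lowest, median and highest CPM of 24.5, 31.3 and 41.3 in the labelled knockout and 40.1, 46.0 and 74.7 in WT on adenine. Chow libraries had 0.767, 0.524, 0.544 and 0.507 CPM, which is 10 to 16 reads a library. Against chow, Ltbp2 was 52.9-fold higher in the labelled knockout (log2 change 5.72, SE 0.313, adjusted p = 5.53e-12) and 88.6-fold higher in WT (6.47, SE 0.305, adjusted p = 2.96e-13). Labelled knockout and WT overlapped slightly, and the change between them was -0.74 (SE 0.149, adjusted p = 0.000503). WT replicates 1 and 2, with 74.7 and 65.7 CPM, were the highest of that group. With antibody Ltbp2 had 4.37, 2.44, 3.52 and 2.14 CPM, against 7.34, 19.8, 9.9997 and 17.1 CPM with IgG. The groups did not overlap, and with antibody Ltbp2 had a log2 change of -2.12 (SE 0.323, adjusted p = 0.000355). For Ltbp2 the knockout effect minus the antibody effect was 1.30 (SE 0.366, adjusted p = 0.00805).

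**Figure D3:**
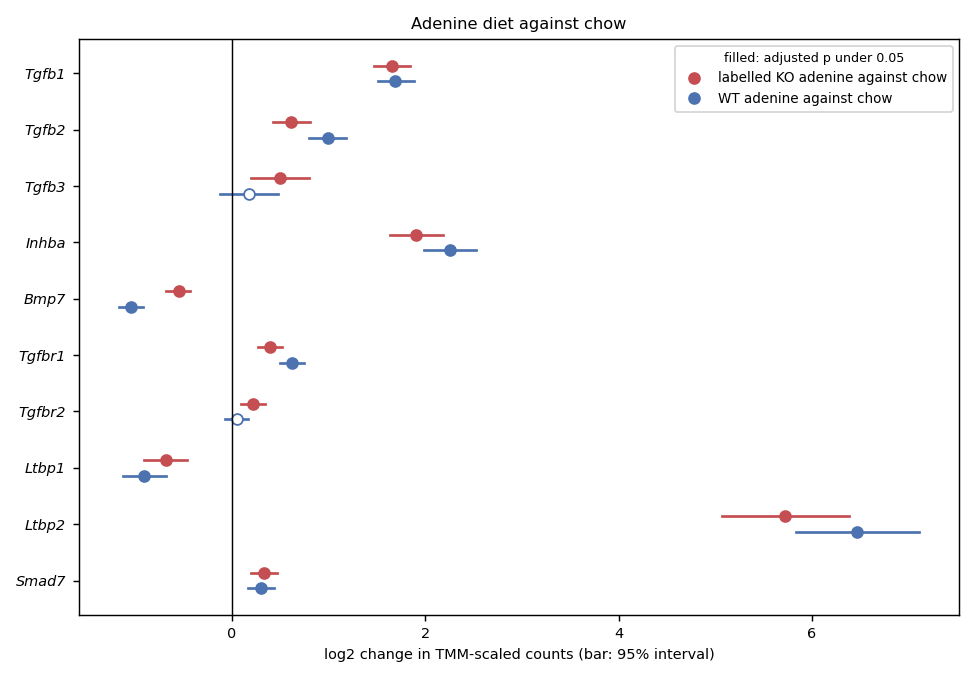
Log2 change of each gene on adenine against chow, in the labelled knockout and in WT, with 95% intervals; filled points passed an adjusted p of 0.05. Both comparisons use the same 4 chow libraries, and Ltbp2 stands at 5.72 and 6.47 while Bmp7 and Ltbp1 stand below 0 (Ltbp1 only without an offset for transcript length).

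Ltbp1, which does bind latent TGF-beta and tethers it to matrix, was below chow on adenine in gene sums, but the direction turned with an offset for transcript length. Its lowest, median and highest CPM were 13.2, 16.6 and 18.6 in the labelled knockout and 11.8, 14.5 and 15.5 in WT on adenine, with 30.9, 27.3, 20.8 and 26.1 in chow. Both adenine groups lay below chow, by a log2 change of -0.69 in the labelled knockout (SE 0.107, adjusted p = 9.55e-06) and of -0.90 in WT (SE 0.108, adjusted p = 2.31e-07). With antibody it had 7.19, 5.24, 5.86 and 4.93 CPM, against 8.11, 15.2, 12.0 and 14.1 CPM with IgG, a change of -1.09 without overlap (SE 0.189, adjusted p = 0.000754). Between labelled knockout and WT the change was 0.22, with a 95% interval of 0.01 to 0.43 (adjusted p = 0.0771).

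A retained-intron transcript of 3277 bases, which encodes no protein, held much of the Ltbp1 signal. It averaged 5.55 CPM in the labelled knockout, 5.51 CPM in WT on adenine and 14.9 CPM in chow, and 1.77 CPM with antibody, against 7.31 CPM with IgG. Protein-coding transcripts averaged 7.55 ± 2.17 CPM in the labelled knockout, 5.22 ± 1.19 CPM in WT on adenine (SD, n = 6 each) and 9.80 ± 1.96 CPM in chow (n = 4). They averaged 2.99 ± 0.264 CPM with antibody and 4.04 ± 1.23 CPM with IgG (SD, n = 4 each). Read from protein-coding transcripts alone, a setting chosen after seeing the data, Ltbp1 in the labelled knockout did not pass against chow (-0.27, adjusted p = 0.234) and antibody against IgG did not pass (-0.51, adjusted p = 0.0796). WT stayed lower than chow in that setting, and the labelled knockout became higher than WT (0.48, adjusted p = 0.0482). With an offset for effective transcript length, Ltbp1 turned to 0.23 in the labelled knockout against chow (adjusted p = 0.0434) and to 0.18 in WT against chow (adjusted p = 0.11).

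**Figure D4:**
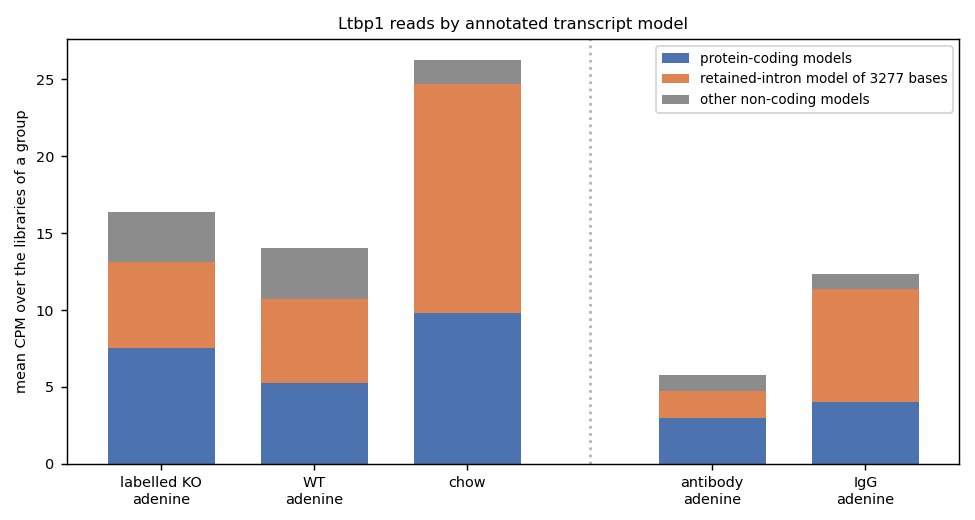
Mean CPM of Ltbp1 by annotated transcript model, stacked, over the libraries of each group; the vertical axis starts at 0 and the dotted line separates the experiments. The retained-intron model of 3277 bases holds 14.9 of 26.3 CPM in chow, against 5.55 CPM in the labelled knockout and 5.51 CPM in WT on adenine.

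Smad7, the inhibitory SMAD that TGF-beta itself induces and that targets TGFBR1 for degradation, was higher on adenine than on chow in both comparisons. It had a lowest, median and highest CPM of 31.8, 33.1 and 35.5 in the labelled knockout and 28.3, 32.5 and 36.9 in WT on adenine, with 28.5, 27.2, 25.7 and 24.5 CPM in chow. The labelled knockout lay above chow (log2 change 0.33, SE 0.0646, adjusted p = 0.000115), and WT was higher than chow with 1 library overlapping (0.30, SE 0.0646, adjusted p = 0.000265). Labelled knockout and WT differed by 0.03, with a 95% interval of -0.09 to 0.15 (adjusted p = 0.691). With antibody Smad7 had 16.2, 20.2, 16.5 and 16.9 CPM, against 12.6, 13.5, 12.8 and 14.8 CPM with IgG. The groups did not overlap, and Smad7 rose by 0.38 with antibody (SE 0.0906, adjusted p = 0.0048), a call lost with upper-quartile scaling (0.22, adjusted p = 0.0571). The knockout effect minus the antibody effect was -0.43 (SE 0.106, adjusted p = 0.00357). In the antibody comparison Smad7 and Bmp7 were the 2 genes higher, against 6 lower.

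Markers of other cell types also differed between groups, and not in the same way in the 2 experiments. Summed fibroblast and pericyte markers ranged from 168 to 250 CPM with antibody, against 401 to 730 with IgG, and 9 of 10 markers were lower. Macrophage markers ranged from 169 to 242 CPM with antibody, against 368 to 722 with IgG, and 10 of 10 were lower. In the knockout experiment macrophage markers ranged from 362 to 484 CPM in the labelled knockout, 330 to 482 in WT on adenine and 141 to 156 in chow. Fibroblast markers ranged from 609 to 850 CPM in the labelled knockout, 480 to 708 in WT on adenine and 454 to 467 in chow. Between labelled knockout and WT, 5 of 10 fibroblast markers were higher and 1 lower, and of 10 macrophage markers 0 were higher and 1 lower. Of all genes 25.1% were higher and 21.3% lower there. Injured-tubule markers ranged from 1078 to 1429 CPM in the labelled knockout, 1229 to 1681 in WT on adenine and 224 to 254 in chow, and from 1747 to 2565 with antibody, against 2769 to 3257 with IgG. Endothelial markers ranged from 106 to 118 CPM with antibody, against 126 to 155 with IgG, without overlap. Of the 10, 2 were lower, where 28% of all genes were. In the knockout experiment they ranged from 269 to 406 CPM in the labelled knockout, 191 to 273 in WT on adenine and 599 to 661 in chow. In the labelled knockout 9 of 10 were higher than in WT. Proximal tubule markers ranged from 6557 to 11522 CPM in the labelled knockout, 2520 to 4624 in WT on adenine and 28523 to 31224 in chow. They ranged from 16961 to 25547 CPM with antibody, against 4905 to 8982 with IgG. Red cell markers ranged from 204 to 492 CPM in the labelled knockout and 12.5 to 35.7 in WT on adenine, with chow at 1072 to 1296. The part of these cell types in the results was not tested.

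The wider pathway was read through lists written with earlier results of these data known, and each list is described by counts and medians without a test of its own. Of 20 genes known to be induced by TGF-beta, 13 were higher and 4 lower on adenine than on chow in each comparison. Of all genes, 40.2% were higher and 39.9% lower in the labelled knockout than in chow, and 44% and 40.9% in WT. Between labelled knockout and WT 4 of the 20 were higher and 4 lower, where 25.1% and 21.3% of all genes were. With antibody 1 was higher and 15 lower, where 27.2% and 28% of all genes were. The median log2 change of the 20 with antibody was -1.15, against -0.04 over all genes. This list shares genes with the members described above. Without those members, of 18 genes 0 were higher and 14 lower with antibody, and 11 were higher and 4 lower in each comparison with chow. Timp1, an inhibitor of matrix proteases, rose by 5.95 in the labelled knockout against chow (adjusted p = 1.41e-13) and by 5.85 in WT against chow (adjusted p = 5.41e-14). Ccn2, a matricellular protein often used as a TGF-beta readout, went the other way, by -1.52 in the labelled knockout against chow (adjusted p = 3.44e-13) and by -1.79 in WT against chow (adjusted p = 1.53e-14). Ccn2 was higher in the labelled knockout than in WT (0.27, adjusted p = 0.00167). With antibody Col1a1, a collagen I chain that is also among the fibroblast markers, fell by 1.68 (adjusted p = 0.00018).

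Of 12 genes known to be induced by BMP, 1 was higher and 6 lower in the labelled knockout than in chow, where 40.2% and 39.9% of all genes were. In WT against chow 1 was higher and 7 lower, where 44% and 40.9% of all genes were. The gene higher in each was Smad7 itself. In the labelled knockout 3 were higher than in WT, where 25.1% of all genes were. With antibody 1 of 10 was higher, again Smad7, and 2 lower, where 27.2% and 28% of all genes were. Id4, an inhibitor of helix-loop-helix factors, fell by 1.46 in the labelled knockout against chow (adjusted p = 4.82e-14). It fell by 0.58 with antibody (adjusted p = 8.8e-05). Bambi, a decoy receptor, was higher in the labelled knockout than in WT (0.69, adjusted p = 4.46e-05) and lower in WT than in chow (-1.85, adjusted p = 1.25e-11).

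Among 22 ligands of the family, 19 were tested in the knockout experiment and 17 in the antibody experiment. Of these, 10 were higher and 5 lower in the labelled knockout than in chow, where 40.2% and 39.9% of all genes were. In WT 9 were higher and 5 lower than in chow, where 44% and 40.9% of all genes were. In the labelled knockout 3 were higher and 8 lower than in WT, where 25.1% and 21.3% of all genes were. With antibody 1 was higher and 9 lower, where 27.2% and 28% of all genes were. Without members of the 10, of 14 ligands 1 was higher and 6 lower in the labelled knockout than in WT. Of 12 such ligands with antibody, 0 were higher and 5 lower. Inha, the inhibin alpha chain that pairs with the Inhba product, rose by 3.25 on the log2 scale in the labelled knockout against chow (adjusted p = 1.78e-12), and by 4.04 in WT against chow (adjusted p = 2.76e-14). It was lower in the labelled knockout than in WT (-0.79, adjusted p = 4.44e-06). Bmp2, a BMP ligand, fell by 1.29 with antibody (adjusted p = 0.0011), opposite to Bmp7. Gdf10, a divergent member of the BMP family, was higher in the labelled knockout than in WT (0.77, adjusted p = 0.000134) and lower than in chow (-0.92, adjusted p = 5.75e-06).

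Of 17 genes for latency, matrix tethering and activation, 3 were higher and 11 lower with antibody, where 27.2% and 28% of all genes were. In the labelled knockout 5 of the 17 were higher and 5 lower than in WT, where 25.1% and 21.3% of all genes were. Fbn2, a microfibril protein that holds latent complexes, rose by 3.58 in the labelled knockout against chow (adjusted p = 4.99e-10) and by 3.26 in WT against chow (adjusted p = 1.56e-09), and fell by 1.75 with antibody (adjusted p = 0.000284). Itgb8, the beta chain of an integrin that activates latent TGF-beta, was lower in the labelled knockout than in chow (-1.22, adjusted p = 6.32e-10) and higher with antibody (0.88, adjusted p = 8.67e-05). Itgb5, another integrin beta chain, was higher in the labelled knockout than in WT (0.68, adjusted p = 4.44e-07), and Ltbp3 was lower (-0.29, adjusted p = 0.0017).

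Of 16 receptors and co-receptors tested, 6 were higher and 3 lower in the labelled knockout than in WT, where 25.1% and 21.3% of all genes were. With antibody 5 of the 16 were higher and 6 lower, where 27.2% and 28% of all genes were. Eng, an endothelial co-receptor, was higher in the labelled knockout than in WT (0.89, adjusted p = 1.56e-07), where 9 of 10 endothelial markers were also higher. Bmpr2, the type II BMP receptor, was higher with antibody (0.43, adjusted p = 0.000589). Of 8 Smads, 3 were lower in the labelled knockout than in WT, with Smad1 at -0.27 (adjusted p = 0.00184), and with antibody 2 were higher and 2 lower, Smad1 again lower (-0.48, adjusted p = 0.000935). Smad3, the TGF-beta mediator, rose against chow by 0.53 in the labelled knockout (adjusted p = 3.22e-08) and by 0.65 in WT (adjusted p = 1.32e-09). Smad4, the shared partner of the Smads that receptors phosphorylate, fell against chow by 0.52 in the labelled knockout (adjusted p = 1.46e-06) and by 0.54 in WT (adjusted p = 6.8e-07).

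Of the extracellular antagonists, 15 were tested in the knockout experiment and 16 in the antibody experiment. In the labelled knockout 6 were higher and 1 lower than in WT, where 25.1% and 21.3% of all genes were. With antibody 6 were lower, where 28% of all genes were lower and 27.2% higher. Chrdl1, a chordin-like BMP antagonist, fell by 3.57 in the labelled knockout against chow (adjusted p = 6.18e-14) and by 4.07 in WT against chow (adjusted p = 6.18e-15). Chrd, chordin, rose by 2.03 in the labelled knockout against chow (adjusted p = 5.15e-12) and by 2.46 in WT against chow (adjusted p = 1.44e-13). Fst, the activin-binding follistatin, fell by 1.53 with antibody (adjusted p = 0.0145). Among 15 intracellular Smad regulators, 4 were higher and 7 lower in the labelled knockout than in WT. Tgif1, a co-repressor of Smad2, was lower (-0.77, adjusted p = 1.24e-07), and it was higher than chow in the labelled knockout (1.55, adjusted p = 9.84e-12) and in WT (2.32, adjusted p = 2.01e-14). With antibody 6 were higher and 4 lower, with Smurf2, a ubiquitin ligase for Smads and receptors, at 0.73 (adjusted p = 5.02e-05).

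The same rule named other genes of these lists. Rgma, a BMP co-receptor, rose against chow by 1.04 in the labelled knockout (adjusted p = 6.61e-09) and by 1.04 in WT (adjusted p = 4.89e-09), and fell by 0.76 with antibody (adjusted p = 0.00454). Its relative Rgmb was lower in the labelled knockout than in WT (-0.18, adjusted p = 0.0261). Bambi fell against chow by 1.16 in the labelled knockout (adjusted p = 1.13e-08), Gdf10 fell by 1.69 in WT against chow (adjusted p = 1.58e-09), and Itgb5 by 1.49 in WT against chow (adjusted p = 8.99e-13). Between labelled knockout and WT, Chrd was lower (-0.43, adjusted p = 0.000282) and Strap, which binds TGF-beta receptors, higher (0.27, adjusted p = 0.00388). Strap fell against chow by 1.12 in the labelled knockout (adjusted p = 1.09e-10) and by 1.39 in WT (adjusted p = 2.6e-12). With antibody the co-repressor Tgif2 fell by 1.14 (adjusted p = 0.000852) and Smad5, a BMP mediator, rose by 0.27 (adjusted p = 0.00279).

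The knockout and antibody effects differed for many list genes as well. Positive differences, knockout minus antibody, were called for the collagen I chain Col1a2 (1.83, adjusted p = 9.74e-06), Fbn2 (1.99, adjusted p = 6.82e-05), the matrix proteoglycan Dcn (1.51, adjusted p = 8.02e-06), Eng (1.38, adjusted p = 6.77e-06), Gdf10 (1.27, adjusted p = 0.000524), Bambi (1.01, adjusted p = 0.00169), Tgif2 (0.77, adjusted p = 0.00875) and the inhibitory Smad6 (0.44, adjusted p = 0.0162). Negative ones were called for Itgb8 (-0.98, adjusted p = 6.42e-05), Smurf2 (-0.68, adjusted p = 1.08e-05), the activin receptor Acvr1b (-0.44, adjusted p = 4.09e-05), Smad2 (-0.39, adjusted p = 0.0014) and the Smad co-repressor Skil (-0.36, adjusted p = 0.0305). Of 20 TGF-beta-induced genes 14 had a higher and 2 a lower difference, where 16.3% and 21.6% of all genes did. Their median was 1.12, against -0.03 over all genes. Of 10 fibroblast markers, which include Col1a2 and Dcn, 7 had a higher difference, and of 10 macrophage markers 10 did, and their part in these differences was not tested.

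**Figure D5:**
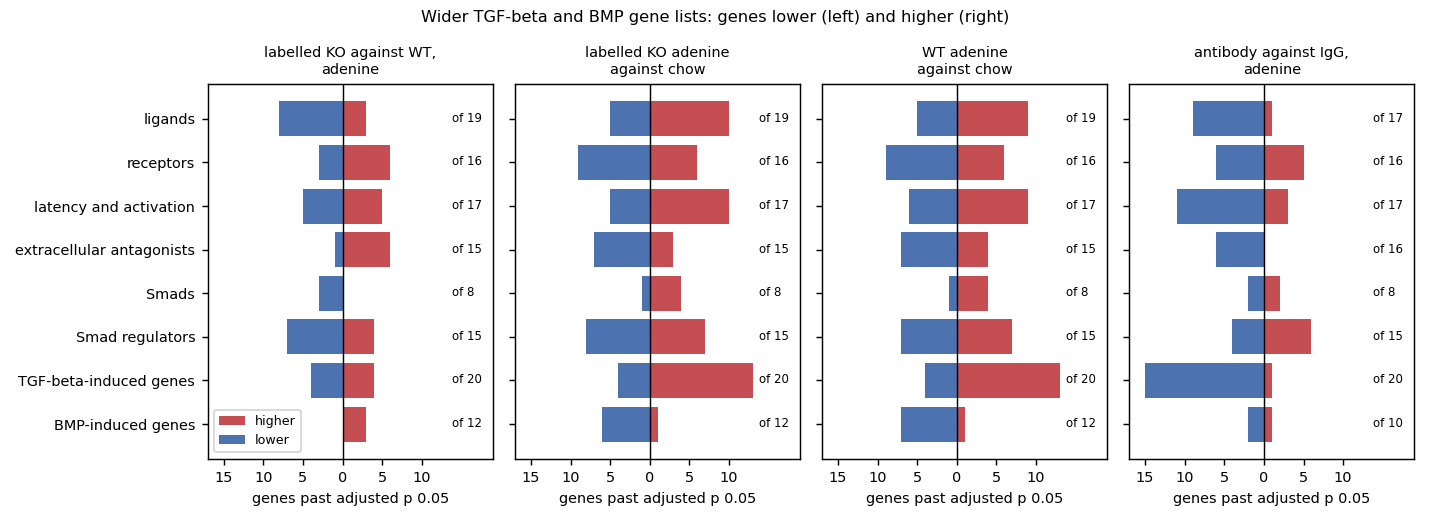
Numbers of genes of 8 lists past an adjusted p of 0.05, lower to the left and higher to the right, in 4 comparisons, with the number tested at the right of each row; the lists include the 10 genes. In the antibody comparison 15 of 20 TGF-beta-induced genes and 11 of 17 latency and activation genes are lower, where 28% of all genes are.

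Levels between genes were compared per length, as the authors' TPM, an abundance scaled for transcript length and library size, within a group. In the labelled knockout Tgfb1 stood at 17.2 ± 2.72 TPM and Tgfbr1 at 16.4 ± 1.23, closer than their spread. From protein-coding transcripts alone the order turned, with Tgfb1 at 13.5 ± 2.26 and Tgfbr1 at 16.2 ± 1.37 TPM. Ltbp1 was at 15.4 ± 1.25 TPM, but its protein-coding transcripts at 1.74 ± 0.387, since a processed transcript of 519 bases held 76.1% of the gene's TPM. Smad7 was at 9.88 ± 0.805, Bmp7 at 8.51 ± 0.508 and Tgfbr2 at 8.39 ± 0.755 TPM, with Bmp7 and Tgfbr2 within their spread, then Ltbp2 at 5.78 ± 1.33, Tgfb2 at 3.31 ± 0.752, Inhba at 1.51 ± 0.175 and Tgfb3 at 1.07 ± 0.113 TPM (SD, n = 6). In WT on adenine Tgfbr1 had 20.9 ± 3.80 TPM and Tgfb1 18.7 ± 2.28, closer than their spread. Ltbp1 stood at 16.1 ± 3.09 and Ltbp2 at 12.4 ± 3.87 TPM (SD, n = 6). From protein-coding transcripts alone in WT, Tgfbr1 had 20.4 ± 3.11, Tgfb1 13.9 ± 1.37 and Ltbp1 1.24 ± 0.390 TPM (SD, n = 6). In chow Bmp7 was the ligand with the highest level, at 7.27 ± 0.163 TPM, against 2.82 ± 0.0902 TPM for Tgfb1, and Ltbp2 was the lowest of the 10 at 0.0750 ± 0.0240 TPM (SD, n = 4). With antibody Bmp7 was again above Tgfb1, at 4.88 ± 0.509 and 2.52 ± 0.612 TPM, whereas with IgG Tgfb1 had 5.49 ± 1.15 TPM and Bmp7 3.57 ± 0.0838 TPM (SD, n = 4 each). From protein-coding transcripts alone, the IgG levels of Tgfb1 and Bmp7 were within their spread, at 3.99 ± 1.06 and 3.33 ± 0.193 TPM. TPM was not compared between diets, because the median gene's TPM was higher by 0.83 on the log2 scale in the labelled knockout than in chow and by 1.00 in WT than in chow.

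For each of the 10, the gene with the most similar pattern was found over the 5 group means of log2(CPM + 1), centred within each experiment, among 10943 genes averaging at least 5 CPM in each experiment. Likeness is the root mean square difference on that scale. For Bmp7 this was Bsnd, the barttin subunit of chloride channels in distal nephron and inner ear, at 0.0235. For Ltbp2 it was Timp1, at 0.278, the loosest match of the 10. For Inhba it was Bmp1, the procollagen C-proteinase, at 0.016. The others were Glipr2 for Tgfb1 (0.0219), Gm48789 for Tgfb2 (0.0381), Arap3 for Tgfb3 (0.00891), Zmym5 for Tgfbr1 (0.00841), Kpna2 for Tgfbr2 (0.0226), Ifi44 for Ltbp1 (0.0268) and Nepro for Smad7 (0.012). With 5 group means and so many genes searched, such matches are descriptions only.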

How the data were processed

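The authors quantified 24 kidney libraries, which were stranded and made from 400 ng of RNA each, per the labels' protocols. The submitters' processing notes name FastQC, Salmon, DESeq, DESeq2 and GRCm39; the sources used here give no versions. The deposited values are estimated counts per transcript, which are not normalized, and TPM, scaled by the authors' quantification, per the file headers. The deposited effective lengths were used only as an offset.

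Transcripts were matched to genes by identifier in GENCODE M21 (GRCm38): 115636 of 116755 matched, and unmatched ones held 0.45% to 0.57% of reads and were left out. Counts were summed per gene and rounded. Genes were tested with edgeR 4.0.16 in R 4.3.3 (filterByExpr, TMM, quasi-likelihood F test, two-sided, Benjamini-Hochberg over all genes tested). A fit of 16 libraries covered the knockout experiment and a fit of 8 the antibody experiment, and the 20 adenine libraries gave the knockout effect minus the antibody effect, over 17113 genes. Intervals are 95%. The code was tested on simulated data. The quantification divides reads among transcripts of a gene, so transcript-level values are less certain than gene sums.

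The members and lists were chosen with earlier results of these data known. All 10 members and Enpp1 are named; from each pathway list, the non-member called with the largest change in each direction is named, at a mean of at least 1 CPM, except that some of these are not reported here. Alternatives were RLE and upper-quartile scaling, no filter, a length offset, a replicate block, DESeq2 1.42.0, only the groups compared, leaving out each library, and, chosen after seeing the data, protein-coding transcripts only. RefSeq promoters are of GRCm38.p6, and no other coordinates are given.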

Additional observations from a re-analysis of the deposited data

Results flagged for a closer look

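Of 55 sets of libraries examined (11 genes in 5 groups), 5 held a library whose gap to its neighbour was large for its group, and chance gives such a gap in about 1 in 20 sets. The highest WT library on adenine had 15.24 CPM of Tgfb2, with the next at 13.3 CPM. The highest chow library had 0.7674 CPM of Ltbp2, with the next at 0.5441 CPM. The highest antibody library had 20.16 CPM of Smad7, with the next at 16.87 CPM. For Enpp1, the highest WT library on adenine had 24.93 CPM, with the next at 22.33 CPM, and the lowest chow library had 49.87 CPM, with the next at 55.38 CPM.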

How the results depend on the processing

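Of 980 values of the 10 genes under alternatives, 932 kept their direction and their side of the threshold, 26 were no longer called, 10 became called and 12 turned sign. Of 50 tests of a gene, 31 kept both throughout. The counts of genes and of the 10 called stayed within 1.5 times in every alternative. Upper-quartile scaling moved the median log2 change of all genes to 0.30 in WT against chow, 0.19 in labelled knockout against chow, -0.19 with antibody and 0.13 for the difference between effects.

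Sign turns were these. Smad7 in labelled knockout against WT was -0.035 with upper-quartile scaling, -0.048 with the length offset and -0.020 with protein-coding transcripts only, and -0.009 to 0.068 with a library left out. With the length offset Ltbp1 was 0.230 in labelled knockout and 0.176 in WT against chow, and Tgfbr2 was -0.003 in WT against chow. With antibody Tgfbr1 was -0.121 with upper-quartile scaling and -0.038 with protein-coding transcripts only, and -0.008 to 0.101 with a library left out. Tgfbr2 with antibody was -0.082 to 0.004 with a library left out. Except for Ltbp1 none of these was called in the main setting, and the cause was not tested.

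With antibody, Ltbp1 was not called with the length offset (-0.46, adjusted p = 0.0789), nor was Smad7 (0.27, adjusted p = 0.132). In labelled knockout against WT, Tgfbr2 was not called with protein-coding transcripts only (adjusted p = 0.0636), and Ltbp1 was called without knockout replicate 2 (0.275, adjusted p = 0.0252). For the difference between effects, Ltbp1 was not called with the length offset (0.45, adjusted p = 0.103), and Tgfbr2 was called with upper-quartile scaling (0.30, adjusted p = 0.01). WT against chow was called for Tgfb3 with upper-quartile scaling (0.40, adjusted p = 0.0173) and for Tgfbr2 with protein-coding transcripts only (0.20, adjusted p = 0.00199).

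Replicate numbers did not pair the libraries, since same-numbered libraries had correlations of -0.144 to 0.0684. With the number as a block, 7522 genes were called between labelled knockout and WT, 13241 between labelled knockout and chow, 14100 between WT and chow, 8270 with antibody and 5697 for the difference between effects. Of the 10 genes, 6, 10, 8, 8 and 6 were called in that order. The block ended the calls of Tgfb3 in labelled knockout against WT (adjusted p = 0.0572), and of Inhba (0.0821) and Ltbp2 (0.0527) for the difference.

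With a library left out, genes called ranged from 7184 to 7962 between labelled knockout and WT, 13190 to 13544 and 14115 to 14395 against chow in labelled knockout and WT, 7894 to 9028 with antibody, and 5709 to 6753 for the difference. Chow Ltbp2, at 10 to 16 reads a library, limits the precision of its fold changes.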
